A study of Mus musculus with 8 samples.

Results

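Mucins and genes secreted by the glands and the lining of the uterus were followed in 4 mouse models of endometrial cancer. The set held 10 genes that were chosen by symbol: the mucins Muc1, Muc4, Muc16, Muc20 and Muc5b, and the secretory genes Agr2, Ltf, Wfdc2, Pigr and Spink1. Of these, 9 were among the 24419 gene symbols with counts, and Muc16 was not analysed here. A filter on low counts left 8 of the 10 genes among 15875 tested. Spink1, a trypsin inhibitor of the Kazal family, did not pass it, with 3 counts in TPM replicate 1 and 0 counts in the other 7 libraries.

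The models were made from uterine organoids of CAG-Cas9-EGFP mice that were edited in culture and then placed into the uterus of female BALB/cA nude mice of 8 weeks. Edits in all 4 models include an sgRNA against Trp53. TPM, TPMPik3ca and TPMPik3r1 carried a retroviral Myc cDNA, to which TPMPik3ca added Pik3ca E545K cDNA and TPMPik3r1 an sgRNA against Pik3r1. TPK did not carry the Myc cDNA. Each model had 2 bulk RNA libraries. The labels name tumor organoids as the source, but the methods of the study state that RNA came from tumors removed from the mice some 2 months later. Host and tumor were both mouse, so host transcripts could not be separated from those of the tumor, and the nude host lacks a thymus but keeps its neutrophils, macrophages, stroma and vessels.

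Mucins are large proteins densely covered with O-linked sugars. Muc1, Muc4 and Muc16 span the membrane of uterine epithelial cells and form the glycocalyx that faces the lumen, and Muc20 is a smaller membrane mucin. Muc5b is a mucin that is secreted and forms gels in airway and cervical mucus, and Agr2 is a disulfide isomerase of the endoplasmic reticulum that is needed to fold such gel-forming mucins. Lactoferrin (Ltf) is an iron-binding antimicrobial protein, strongly estrogen-responsive in the mouse uterus and also stored in the secondary granules of neutrophils. Wfdc2 encodes HE4, a secreted protein with WAP domains and a serum marker of gynecologic cancers. Pigr carries polymeric immunoglobulins across epithelia into the lumen.

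The starts of 4 of the genes are shown as examples, among them those of the neighbors Muc4 and Muc20. All 8 tested genes were lower in both Pik3 models than in TPM, so this does not set the 4 apart. Sequences are the 250 bases before the annotated start, from RefSeq on GRCm38.p6, written 5′ to 3′ on the strand of the gene. Capitals mark matches on either strand to GGTCA (an arm of the estrogen response element), TATAAA (the TATA box), GGGCGG (the GC box) or TGTTTAC (the core bound by FOXA factors).
Ltf, chr9:111019042-111019291, plus strand: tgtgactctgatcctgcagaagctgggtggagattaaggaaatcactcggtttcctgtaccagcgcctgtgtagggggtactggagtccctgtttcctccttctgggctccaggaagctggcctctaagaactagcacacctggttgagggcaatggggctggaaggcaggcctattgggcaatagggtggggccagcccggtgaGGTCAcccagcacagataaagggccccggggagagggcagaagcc
Muc1, chr3:89228806-89229055, plus strand: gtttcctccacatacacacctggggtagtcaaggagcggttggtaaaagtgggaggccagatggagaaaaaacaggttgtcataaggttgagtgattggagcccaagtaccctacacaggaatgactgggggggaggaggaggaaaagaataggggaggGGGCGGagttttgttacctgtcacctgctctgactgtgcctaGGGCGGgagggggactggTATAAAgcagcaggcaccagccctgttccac
Muc4, chr16:32735636-32735885, plus strand: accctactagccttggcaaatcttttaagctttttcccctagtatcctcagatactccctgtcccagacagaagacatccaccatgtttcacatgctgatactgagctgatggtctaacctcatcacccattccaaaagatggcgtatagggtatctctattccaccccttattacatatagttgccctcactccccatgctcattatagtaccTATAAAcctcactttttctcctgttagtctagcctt
Muc20, chr16:32797436-32797685, minus strand: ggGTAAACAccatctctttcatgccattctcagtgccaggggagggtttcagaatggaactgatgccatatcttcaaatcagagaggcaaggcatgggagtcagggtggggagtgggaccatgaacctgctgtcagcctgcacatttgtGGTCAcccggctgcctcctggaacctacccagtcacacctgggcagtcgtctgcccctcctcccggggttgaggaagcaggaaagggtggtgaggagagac
Ltf held GGTCA starting 45 bases before its start and Muc20 held it 101 bases before, a motif found in 35.2% of 32851 promoter windows of the same length. Muc1 and Muc4 held TATAAA, which 12.4% of the windows had, at 31 and 36 bases before the start. Muc1 also held GGGCGG at 91 and 49 bases, a motif of 32.7% of the windows, and the Muc20 window held TGTTTAC, a motif of 3.17%. The windows of Pigr and Wfdc2 were searched too and held GGTCA 12 bases before the start in Pigr and, for Wfdc2, 5 bases before it in the second of 2 annotated starts. The Wfdc2 windows also held GGGCGG, at 53 and 54 bases. The Agr2 window held none of these motifs. TGANTCA, the AP-1 site, was in none of the members' windows and in 6.75% of all windows. The full estrogen response element, GGTCA and its reverse complement with 3 bases between them, was also in none of them and in 0.0639% of all windows. RefSeq windows were matched for 8 of the 10 genes, all except Muc5b and Spink1. A match of letters is not a shown binding site.

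In GENCODE M21 on GRCm38, Muc4 lies at chr16:32735886-32782391 on the plus strand and Muc20 at chr16:32777419-32797435 on the minus strand. The genes overlap at their 3′ ends, and whether the counting used strand is not given in the sources used here. Reads from the overlap cannot be assigned to either gene with certainty. The other members analysed did not overlap another annotated gene. Muc1 lies at chr3:89229057-89233381, Muc5b at chr7:141839070-141873084, Agr2 at chr12:35992907-36004087, Ltf at chr9:111019271-111042767, Wfdc2 at chr2:164562413-164568510 and Pigr at chr1:130826684-130852249, all on the plus strand.

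Libraries held 15748396 to 26943611 counts, so that 3 counts corresponded to 0.116 to 0.198 CPM (counts scaled to library size with TMM factors). This floor covers counting error only. Myc was at 324 to 3080 CPM in the 3 models with the Myc cDNA and at 92.8 to 154 CPM in TPK. Pik3r1 was at 51.3 and 101 CPM in TPMPik3r1 and at 99.6 to 188 CPM in TPM, and Pik3ca at 83.3 to 89.9 CPM in TPMPik3ca and 60.9 to 76.6 CPM in TPM. Trp53 transcripts were present in all models at 33.2 to 131 CPM, and an sgRNA edit need not remove a transcript. The replicates of TPMPik3r1 stood furthest apart, with 2012 genes over 4-fold apart against 464 to 792 in the other models.

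The label of an endometrial epithelial tumor was checked against 10 epithelial markers. Their summed level was 3973 and 5683 CPM in TPK and 3709 and 6410 CPM in TPM. It was 80.1 and 26.5 CPM in TPMPik3ca and 6.74 and 28.6 CPM in TPMPik3r1. Esrp1, an epithelial splicing regulator, was at 167 and 230 CPM in TPK, 212 and 218 CPM in TPM, 1.20 and 0.223 CPM in TPMPik3ca and 0 counts in both libraries of TPMPik3r1. The study reported well-formed glands in stained sections of tumors of both Pik3 models. The label was thus not borne out by the RNA of these 10 markers in the 4 libraries of those models. These are bulk samples, and fewer epithelial cells cannot be told apart from less RNA of these genes per cell. Each result on the members stands beside this difference, and its part in them was not tested.

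The members together took 1.10% and 2.03% of all counts in TPK and 0.344% and 0.257% in TPM. They took 0.00631% and 0.000810% in TPMPik3ca, and 0.000238% and 0.000850% in TPMPik3r1. By count, Ltf was the most abundant gene of all in TPK replicate 1 and ranked 4 in replicate 2, where Muc5b ranked 2. The plot of all 8 tested genes by library shows the same step in each panel, with both Pik3 models below TPM and TPK.

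**Figure D1:**
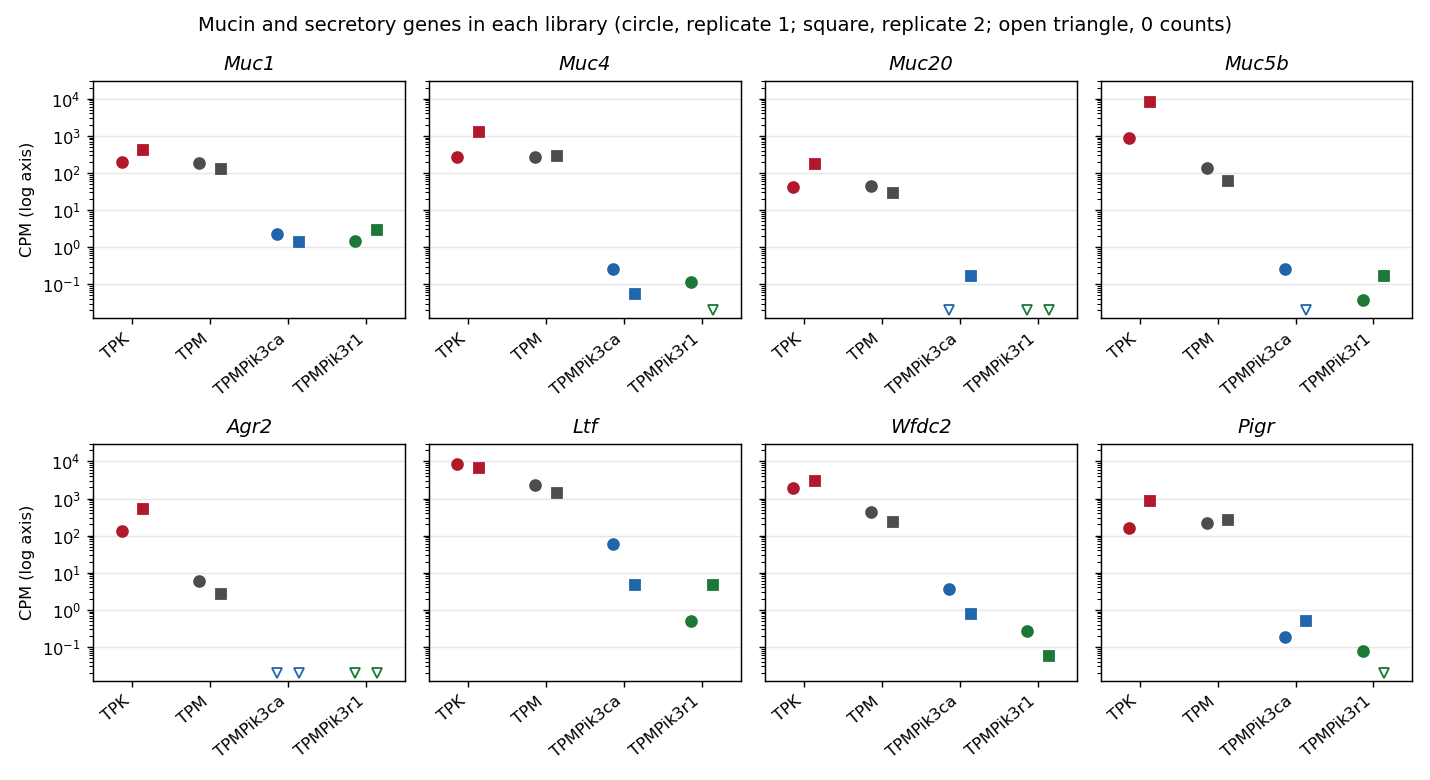
CPM (log axis) of the 8 tested genes in each library of the 4 models, with circles for replicate 1, squares for replicate 2 and open triangles at the bottom for 0 counts. Every library of TPMPik3ca and TPMPik3r1 lies below every library of TPM and TPK in each panel, and Agr2 has 0 counts in all 4 libraries of the Pik3 models.

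Levels between genes were compared as CPM per kilobase of exon. In TPM the order was Ltf at 531 ± 182 (SD, n = 2), Wfdc2 at 286 ± 121, Muc1 at 66.7 ± 16, Pigr at 59.8 ± 8.49, Muc4 at 23.3 ± 1.56, Muc20 at 9.29 ± 2.89, Muc5b at 6.48 ± 3.47 and Agr2 at 3.35 ± 1.79 CPM per kilobase. Neighbors whose ranges of mean ± SD overlapped were Ltf and Wfdc2, Muc1 and Pigr, Muc20 and Muc5b, and Muc5b and Agr2. In TPK the order was Ltf at 2215 ± 334, Wfdc2 at 2123 ± 616, Muc5b at 296 ± 338, Agr2 at 258 ± 219, Pigr at 130 ± 126, Muc1 at 129.5 ± 61.4, Muc4 at 66.6 ± 62.1 and Muc20 at 26.9 ± 23.3 CPM per kilobase. There, by the same measure, Ltf and Wfdc2 did not differ beyond their spread, nor did any neighbors among the last 6. Muc5b and Agr2 stood at the foot of the order in TPM and next after Ltf and Wfdc2 in TPK. In TPMPik3ca only Ltf at 9.20 ± 11.1, Wfdc2 at 1.95 ± 1.80 and Muc1 at 0.757 ± 0.266 CPM per kilobase were above 0.1, and in TPMPik3r1 Muc1 at 0.941 ± 0.444, Ltf at 0.750 ± 0.854 and Wfdc2 at 0.143 ± 0.134 CPM per kilobase.

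The first comparison asked how the secretory genes differed between TPMPik3ca, the model with mutant Pik3ca, and TPM. In TPMPik3ca, 6 of the 8 tested genes fell (edgeR quasi-likelihood test, adjusted p under 0.05), where 3.02% of all tested genes fell and 3.48% changed in either direction. They were all 4 mucins tested, Wfdc2 and Pigr. Agr2 and Ltf were also lower in both libraries but did not pass the test. The median log2 fold change of the 8 genes was −8.96, or −7.91 with Agr2 set to its bound, against −0.0133 over all tested genes. For the 10 epithelial markers the median was −6.68, and 8 of them fell.

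Among the mucins, Muc1 was at 183 and 130 CPM in TPM and kept 2.22 and 1.34 CPM in TPMPik3ca. It fell by 6.46 ± 0.61 (SE) on the log2 scale (edgeR, adjusted p = 0.0076). Muc4 was at 261 and 287 CPM in TPM, and only 4 and 1 counts were left in TPMPik3ca. It fell by 10.77 ± 1.26 on the log2 scale (edgeR, adjusted p = 0.012). Muc20 was at 45.6 and 29.2 CPM in TPM and had 0 and 3 counts in TPMPik3ca (edgeR, adjusted p = 0.0287), so that its level in TPM was 418.5 times higher, with a 95% counting interval of 142.9 to 2032. Muc5b was at 134 and 60.2 CPM in TPM and had 4 and 0 counts in TPMPik3ca, a fall by 9.57 ± 1.68 on the log2 scale (edgeR, adjusted p = 0.0354). Muc1 was thus the mucin with most transcript left, and it fell the least of the 4 in the fit.

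Of the secretory genes, Wfdc2 was at 423 and 228 CPM in TPM and at 3.67 and 0.779 CPM in TPMPik3ca. It fell by 7.20 ± 0.97 on the log2 scale (edgeR, adjusted p = 0.0179). Pigr was at 217 and 265 CPM in TPM and had 3 and 9 counts in TPMPik3ca, a fall by 9.39 ± 1.15 on the log2 scale (edgeR, adjusted p = 0.0134). Ltf was at 2278 and 1388.5 CPM in TPM and at 58.8 and 4.67 CPM in TPMPik3ca, where the replicates were 12.6-fold apart, and its log2 fold change was −5.85 ± 1.5 (edgeR, adjusted p = 0.0892). Agr2 had 99 and 47 counts in TPM and 0 in both libraries of TPMPik3ca, at least 24.2-fold lower against 3 counts in each library (edgeR, adjusted p = 0.0653).

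Every TPMPik3ca library lay below every TPM library for all 8 genes, as for 32.2% of tested genes. Without TPMPik3ca replicate 1, and likewise without TPMPik3ca replicate 2, none of the 8 genes passed in edgeR, and without TPM replicate 1 only 2 did, against 4 to 8 without any other library. Muc1 and Muc4 kept their calls in 6 of 8 such fits, Pigr in 5, Muc5b in 4, Muc20 and Wfdc2 in 3. All 8 genes had an unadjusted p under 0.05, as did 22.1% of tested genes, and DESeq2 called all 8.

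The second comparison asked the same for TPMPik3r1, the model with the sgRNA against Pik3r1. All 8 tested genes fell in TPMPik3r1 against TPM (edgeR, adjusted p under 0.05), where 4.5% of all tested genes fell and 5.58% changed in either direction. TPM was the reference in this comparison too, so the values for both Pik3 models are not independent. The median log2 fold change was −10.35, or −9.69 with Agr2 and Muc20 set to their bounds, against 0.0312 over all tested genes. The epithelial markers had a median of −9.12, and 10 of 10 fell.

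Muc1 was at 1.47 and 2.95 CPM in TPMPik3r1 and fell by 6.15 ± 0.60 on the log2 scale (edgeR, adjusted p = 0.00522). With 3 and 0 counts, Muc4 was 4006 times higher in TPM, with a counting interval of 1370 to 19430 (edgeR, adjusted p = 0.00802). Muc20 had 0 counts in both libraries, at least 264-fold lower (edgeR, adjusted p = 0.0185). Muc5b had 1 and 3 counts and fell by 9.90 ± 1.70 on the log2 scale (edgeR, adjusted p = 0.0272). As in TPMPik3ca, Muc1 was the only mucin of the set above 1 CPM in a library of the model.

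Among the secretory genes, Pigr had 2 and 0 counts in TPMPik3r1 and was 5289 times higher in TPM, with a counting interval of 1464 to 43680 (edgeR, adjusted p = 0.00771). Wfdc2 had 7 counts and 1 count and fell by 10.81 ± 1.16 on the log2 scale (edgeR, adjusted p = 0.0071). Ltf was at 0.503 and 4.67 CPM and fell by 9.49 ± 1.77 on the log2 scale (edgeR, adjusted p = 0.0325). Agr2 was at 0 counts in both libraries, at least 30.6-fold lower (edgeR, adjusted p = 0.0487). No library of TPMPik3r1 overlapped one of TPM for any of the 8 genes, which held for 28.4% of all tested genes in the lower direction.

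Muc1, Muc4, Wfdc2 and Pigr kept their calls in edgeR whichever of the 8 libraries was left out. Without TPM replicate 1 or TPM replicate 2 the count was 4 each, and without TPMPik3r1 replicate 1 it was 5. Agr2 lost its call in each of the 8 fits. With only the TPM and TPMPik3r1 libraries in the fit, 2 of the 8 genes passed, Muc4 (edgeR, adjusted p = 0.0492) and Pigr (edgeR, adjusted p = 0.0449).

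**Figure D2:**
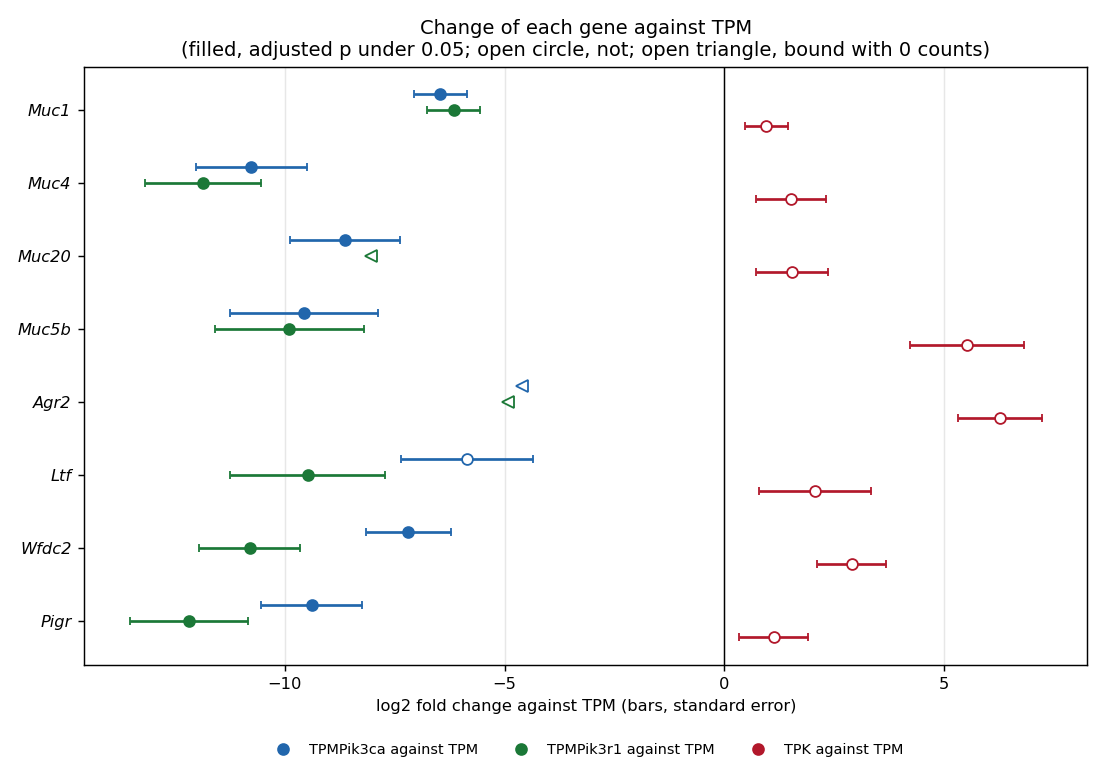
Log2 fold change against TPM (x axis, bars give the standard error) of each gene in TPMPik3ca, TPMPik3r1 and TPK, with filled circles at an adjusted p under 0.05, open circles above it and open triangles for the bound where a model had 0 counts. Values for both Pik3 models are negative for all 8 genes. Those for TPK are positive, with Agr2 at 6.27 and Muc5b at 5.51, but none has an adjusted p under 0.05.

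TPMPik3r1 and TPMPik3ca were next set against each other. None of the 8 genes passed (edgeR), as none of all 15875 tested genes did, while 2 of the 8 had an unadjusted p under 0.05, against 11.8% of tested genes. DESeq2 called those 2 genes, Wfdc2 and Ltf, and 797 of all tested genes. Wfdc2 was lower in both libraries of TPMPik3r1, with a log2 difference of −3.61 ± 0.96 (edgeR, adjusted p = 0.372). For Ltf the difference was −3.63 ± 1.38 (edgeR, adjusted p = 0.408), and the lower TPMPik3ca library and the higher TPMPik3r1 library were both at 4.67 CPM. Muc1 differed by 0.31 ± 0.52 and overlapped (edgeR, adjusted p = 0.85). Pigr had 2 counts over both TPMPik3r1 libraries and 12 over both TPMPik3ca libraries. Muc4, Muc20, Muc5b and Agr2 were at or under 3 counts a library on average in both models, and no fold is given for them.

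TPK was then compared with TPM. No gene passed an adjusted p under 0.05 in edgeR, neither among the members (0 of 8) nor among all 15875 tested genes (0%), and 3 of the 8 had an unadjusted p under 0.05, against 7.17% of tested genes. Those were Agr2, Muc5b and Wfdc2, and all 3 were called by DESeq2, which called 243 genes in all. The direction was upward in the fit for all 8 members, with a median log2 fold change of 1.80 against 0.0123 over all tested genes. In 5 of 8 the TPK libraries lay above both TPM libraries, which held for 24.4% of tested genes. The epithelial markers had a median of −0.23, with none called.

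Agr2 was at 134 and 533 CPM in TPK and at 5.96 and 2.69 CPM in TPM. Its log2 fold change was 6.27 ± 0.96 (edgeR, adjusted p = 0.653, and DESeq2, adjusted p = 2.31e-08). Muc5b, whose product Agr2 helps to fold, was at 857 and 8004 CPM in TPK and at 134 and 60.2 CPM in TPM, a log2 fold change of 5.51 ± 1.30 (edgeR, adjusted p = 0.653, and DESeq2, adjusted p = 0.000666). Wfdc2 was at 1924 and 2917 CPM in TPK and at 423 and 228 CPM in TPM, a log2 fold change of 2.89 ± 0.78 (edgeR, adjusted p = 0.653, and DESeq2, adjusted p = 0.0242). The lowest TPK library was above the highest TPM library for each of the 3 genes.

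Ltf was at 8456 and 6827 CPM in TPK, above both TPM libraries, with a log2 fold change of 2.06 ± 1.27 (edgeR, adjusted p = 0.759). Muc1, at 202 and 406 CPM, was also above both TPM libraries, with 0.96 ± 0.48 (edgeR, adjusted p = 0.721). Muc4 at 267 and 1299 CPM, Muc20 at 41.9 and 175 CPM and Pigr at 164 and 883 CPM overlapped with TPM. Muc4, Muc20 and Pigr therefore did not stand clear of TPM in both TPK libraries, and for Muc4 and Pigr the sign rested on TPK replicate 2. Without that library the log2 fold change was −0.03 for Muc4 and −0.55 for Pigr.

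The replicates of TPK were far apart for several of these genes. The level in replicate 2 was 9.34 times that in replicate 1 for Muc5b, 5.38 times for Pigr, 4.86 times for Muc4, 4.17 times for Muc20 and 3.99 times for Agr2. It was 2.01 times for Muc1, 1.52 times for Wfdc2 and 0.807 times for Ltf. In the same libraries the summed level of the epithelial markers differed 1.43 times, that of the squamous markers 0.636 times and that of 16 genes that work with mucins in secretion 3.13 times. The TPM replicates differed in the members by 0.451 to 1.22 times.

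**Figure D3:**
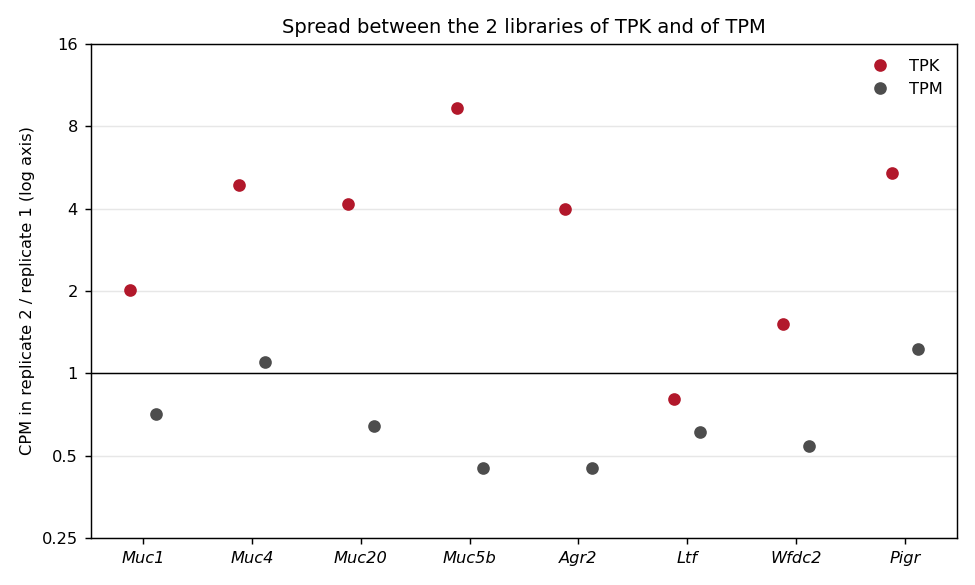
CPM in replicate 2 divided by CPM in replicate 1 (log axis) for the 8 genes in TPK and in TPM. In TPK, 7 of the 8 genes lie above 1, up to 9.34 for Muc5b, and Ltf lies at 0.807, whereas TPM stays between 0.451 and 1.22.

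Against the mean of both Pik3 models, TPK was higher in 8 of the 8 tested genes (edgeR, adjusted p from 0.000829 to 0.00592), where 10.3% of all tested genes were higher and 14.4% changed in either direction. All 8 kept their calls when any 1 library was left out. The median of the 8 fitted values was 11.98 on the log2 scale (11.90 with Agr2 at its bound). Muc1 was higher by 7.26 ± 0.47 on the log2 scale (edgeR, adjusted p = 0.000829) and Ltf by 9.73 ± 1.29 (edgeR, adjusted p = 0.00592). Agr2 was at least 2083-fold higher in TPK, since all 4 libraries of the Pik3 models had 0 counts (edgeR, adjusted p = 0.0036). Muc5b had the largest fitted difference among members with counts on both sides, 15.25 ± 1.40 on the log2 scale (edgeR, adjusted p = 0.00193). That size rests on only 8 counts over the 4 Pik3 libraries and on TPK libraries at 857 and 8004 CPM. The 10 epithelial markers were all higher too, with a median of 8.31.

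Genes that work with mucins were examined as a list of 16 mucus secretion partners, of which 10 were tested. In TPK against the mean of the Pik3 models 7 of the 10 were higher, where 10.3% of all tested genes were. They included Fcgbp, a protein of mucus (10.07 on the log2 scale), and Spdef, a transcription factor of mucous cells (8.45). Ern2, the epithelial sensor of unfolded proteins, was at 0 counts in all 4 Pik3 libraries and was at least 184-fold higher in TPK. Clca1, a secreted protein of goblet cells, was at 413 and 867 CPM in TPK, 5.54 and 23.2 CPM in TPM, and had 1 count over the 4 Pik3 libraries, so that TPK was 48410 times higher, with a 95% counting interval of 8687 to 1912000. Spdef was at 29.6 and 134 CPM in TPK and 12.7 and 5.21 CPM in TPM. Against TPM, 4 of the 10 fell in TPMPik3r1 (Fcgbp, Dmbt1, Clca1 and Spdef), where 4.5% of all tested genes fell. In TPMPik3ca only Clca1 fell, against 3.02% of all tested genes. Clca1 had 0 counts there and was at least 80.6-fold lower (edgeR, adjusted p = 0.0292). None of the 10 was called in TPK against TPM (edgeR), as none of all 15875 tested genes was. Of the 10, 8 had positive log2 fold changes there and 2 negative, with a median of 1.86. An unadjusted p under 0.05 was found for 6, against 7.17% of tested genes. The trefoil genes Tff1, Tff2 and Tff3, whose peptides accompany mucins in the gut, were at 0.198 CPM or lower in every library.

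Of 11 other mucins, 7 had counts and 6 were tested. Muc13 and Muc15, both membrane mucins, fell in TPMPik3ca and in TPMPik3r1, where 3.02% and 4.5% of all tested genes fell. The remaining 4 did not pass. The log2 fold changes of Muc13 were −5.65 and −6.81. Muc15 had 530 counts over both TPM libraries, 1 count over both TPMPik3ca libraries (TPM 524.8 times higher, 95% counting interval 93.8 to 20770) and 0 counts in TPMPik3r1, at least 111-fold lower. In TPK against the mean of the Pik3 models Muc5ac, Muc13 and Muc15 were higher, as were 10.3% of all tested genes. Muc13 was higher by 6.02 on the log2 scale. Muc5ac, the gel-forming mucin of the stomach surface and airway, had 1 count over the 4 Pik3 libraries, against which TPK was 2016 times higher (95% counting interval 360.9 to 79730), and Muc15, also with 1 count there, was 268.3 times higher (47.2 to 10690). Muc5ac was at 4.63 and 50.6 CPM in TPK and at 4.09 and 1.43 CPM in TPM. Its log2 fold change in TPK against TPM was 3.32, the only positive value among the 6. The other 5 were negative, and the median of the 6 was −0.57. Muc15, at 2.97 and 4.02 CPM in TPK, and Muc2 lay below both TPM libraries in both TPK libraries. None of the 6 was called in TPK against TPM (edgeR), and 2 had an unadjusted p under 0.05, against 7.17% of tested genes. Muc2, the gel-forming mucin of the intestine, was at 11.5 CPM in TPMPik3ca replicate 1 and between 0.171 and 1.51 CPM elsewhere, and did not pass in any comparison.

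**Figure D4:**
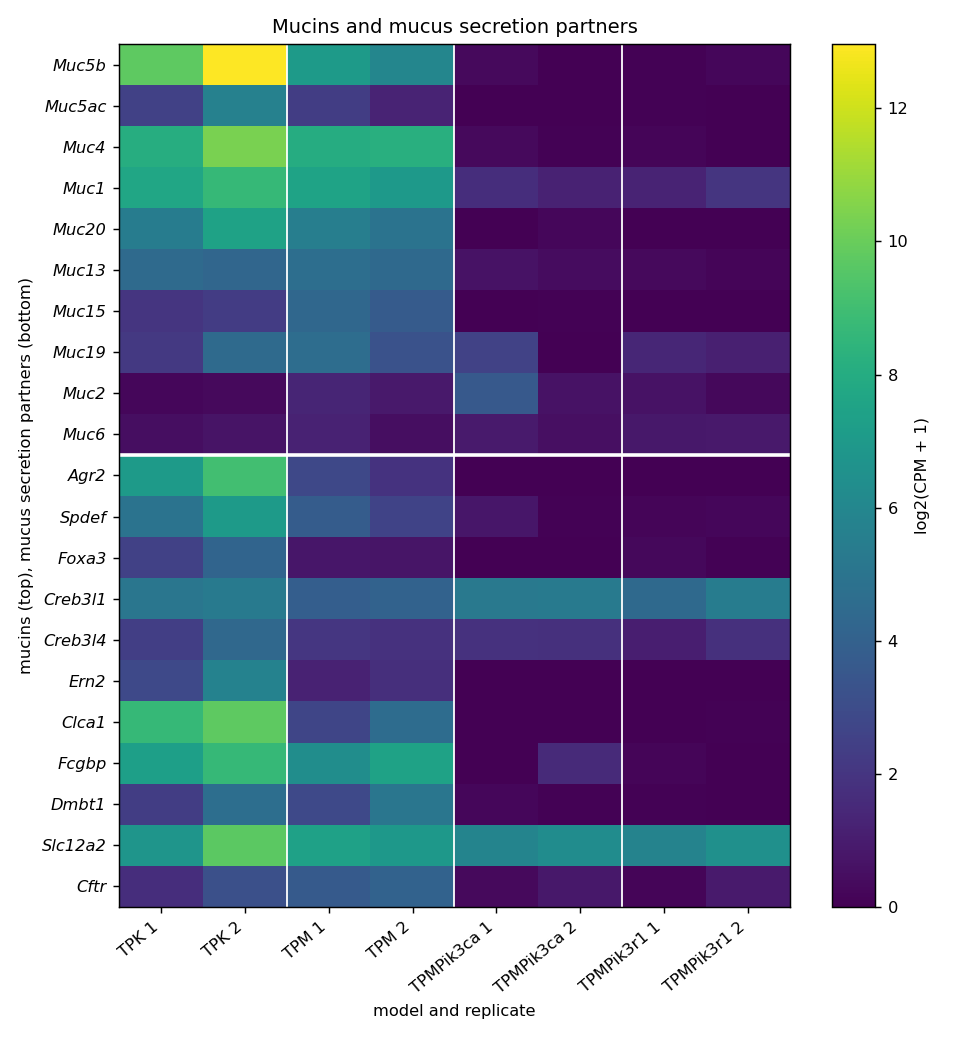
Level of 10 mucins (top) and of Agr2 with 10 mucus secretion partners (bottom) in each library, as log2(CPM + 1) on the color scale. TPK replicate 2 is the brightest column for Muc5b, Muc5ac, Agr2, Spdef, Ern2 and Clca1, whereas Creb3l1 and Slc12a2 stay visible in all 8 libraries.

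The enzymes that build O-linked sugars on mucins moved less than the members in the median. Of 21 tested, 3 fell in TPMPik3ca and 5 in TPMPik3r1, where 3.02% and 4.5% of all tested genes fell. Their medians were −0.66 and −1.25 on the log2 scale. Higher in TPK than in the mean of the Pik3 models were 11, against 10.3% of all tested genes. Galnt3, which starts the sugar chains, fell in both, with log2 fold changes of −4.89 in TPMPik3ca and −6.27 in TPMPik3r1. Fut2, which adds a terminal fucose, had −5.71 and −7.06, and St6galnac2, a sialyltransferase, −4.57 and −3.87. Galnt6 and St6galnac1 fell in TPMPik3r1 as well. Galnt1 and Galnt2, expressed in most tissues, were at 60.1 to 195 CPM in all libraries and were not called.

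Further genes secreted by the uterine lining mostly had negative log2 fold changes in the Pik3 models, but few passed. Of 13 tested, 10 were negative in TPMPik3ca (median −1.92) and 11 in TPMPik3r1 (median −2.20). In each model 2 were called lower, where 3.02% and 4.5% of all tested genes fell. These were Sprr2f, a small proline-rich protein known to respond to estrogen in the uterus, and Cfi, complement factor I. Sprr2f was at 256 and 122 CPM in TPM, 91.8 and 105 CPM in TPK and at 0 counts in all 4 Pik3 libraries. Aldh1a1, a retinaldehyde dehydrogenase, was the only gene of this list called higher in TPMPik3r1 than in TPM, by 7.63 on the log2 scale (edgeR, adjusted p = 0.038). Its replicates there were far apart, at 6003 and 276 CPM, against 11.1 and 20.5 CPM in TPM. In TPK against the mean of the Pik3 models 11 of the 13 were positive. Called higher were 5, Sprr2f, Cxcl15, Cfi, Cp and Clu, against 10.3% of all tested genes. Cxcl15 was at 4.11 and 117 CPM in TPK. Clu was at 291 and 883 CPM in TPK and at 352 and 167 CPM in TPMPik3r1, so these overlapped. In TPMPik3ca Clu was at 34.1 and 46.2 CPM. Lcn2, an iron-scavenging protein, was at 31.7 to 1933 CPM and not called in any comparison. The gland proteases Prss28 and Prss29 and the carrier Ttr were at 0 counts in all libraries.

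Wfdc2 and Spink1 belong to the WAP and Kazal families of secreted proteins, many of them protease inhibitors. A list of 12 other tested genes held 10 of these families and the Kunitz-type inhibitors Spint1 and Spint2. The same 4 of the 12 fell in both Pik3 models against TPM, Wfdc18 (WAP), Spink5 (Kazal), Spint1 and Spint2. Of all tested genes, 3.02% fell in TPMPik3ca and 4.5% in TPMPik3r1. Spint2 changed by −5.07 in TPMPik3ca and −3.82 in TPMPik3r1 on the log2 scale and kept 14.1 to 36.1 CPM in the Pik3 models, and Spink5, an inhibitor of epidermal proteases, was at 0 to 1.27 CPM there and at 175 to 852 CPM in TPM and TPK. Spint1 and Spint2 are anchored in the membrane of epithelial cells and belong to neither family. In TPK against the mean of the Pik3 models 4 of the 12 were higher, against 10.3% of all tested genes. None of the 12 was called in TPK against TPM (edgeR), as none of all 15875 tested genes was. There 5 were positive and 7 negative, with a median log2 fold change of −0.17. An unadjusted p under 0.05 was found for 3, against 7.17% of tested genes.

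Ltf is made by neutrophils as well as by the uterine epithelium, so neutrophil genes were read beside it. None of 11 tested neutrophil markers was called in any of the 5 comparisons (edgeR). Their summed level was 832 and 827 CPM in TPK, 563 and 946 CPM in TPM, 2830 and 345 CPM in TPMPik3ca and 19.0 and 581 CPM in TPMPik3r1. Ngp, a granule protein of developing neutrophils, was at 43.5 and 1.71 CPM in TPK, 16.4 and 11.1 CPM in TPM, 285 and 3.84 CPM in TPMPik3ca and 1.05 and 3.78 CPM in TPMPik3r1. Camp, the cathelicidin of the same granules, was at 23.8 and 0.264 CPM in TPK and at 13.9 and 0.668 CPM in TPMPik3ca. Within each Pik3 model and within TPK the library with more Ltf was the one with more Ngp, Camp and S100a8. The TPK libraries differed little in S100a8, at 212 and 195 CPM. In TPM the library with more Ltf had more Ngp but less Camp and S100a8. In TPK replicate 2 Ltf was at 6827 CPM with Ngp at 1.71 CPM. The 5 secondary granule genes summed to 361 and 629 CPM in TPK, of which Cybb, which macrophages also express, was 272 and 609 CPM. Without Cybb the other 4 summed to 88.5 and 20.2 CPM in TPK, 41.2 and 33.6 CPM in TPM, 463 and 30.2 CPM in TPMPik3ca and 3.56 and 26.8 CPM in TPMPik3r1. Cybb was higher in TPK than in the mean of the Pik3 models by 3.49 on the log2 scale (edgeR, adjusted p = 0.00961). How much of Ltf came from neutrophils was not tested.

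**Figure D5:**
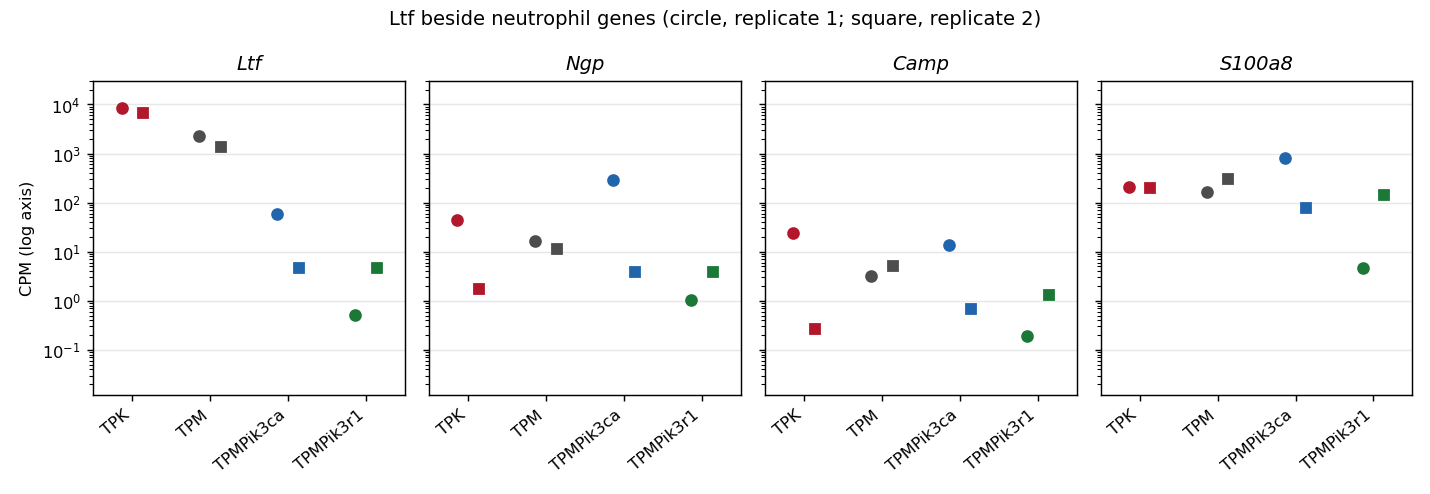
CPM (log axis) of Ltf and of the neutrophil genes Ngp, Camp and S100a8 in each library, with circles for replicate 1 and squares for replicate 2. Ltf is at 1388.5 CPM or more in TPK and TPM and at 58.8 CPM or less in the Pik3 models, whereas the highest Ngp and S100a8 levels are in TPMPik3ca replicate 1.

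Pigr carries IgA joined by the J chain. Jchain, the gene of that chain and a marker of plasma cells, was at 82.0 and 0.330 CPM in TPK, where Pigr was at 164 and 883 CPM, and none of the 4 plasma cell markers tested was called in any comparison. Immunoglobulin heavy chain genes were not analysed here. Markers of other tissues that secrete mucins or the same inhibitors were low. Among pancreatic acinar markers Pnlip was at 0 counts throughout, and the 9 genes summed to 2.90 to 17.2 CPM per library. Of the intestinal markers Cdx2 was at 0 counts in all libraries and Cdx1 at 0.0572 CPM or lower, and only Reg3g, an antimicrobial lectin that inflamed epithelia also make, was higher in TPK (67.2 and 81.3 CPM) than in the mean of the Pik3 models, by 10.92 on the log2 scale, and lower in TPMPik3r1, with 0 counts, than in TPM, with 3.01 and 29.5 CPM, by at least 115-fold. No acinar marker was called among 3 tested. No marker of macrophages, fibroblasts, endothelium or mesothelium was called in any of the 5 comparisons (edgeR), among 7, 6, 6 and 7 tested. Short of that threshold, several of these markers were higher in TPMPik3ca than in TPM, opposite to the members. For macrophages 7 of 7 had positive log2 fold changes, with 6 at an unadjusted p under 0.05, 6 without overlap and a median of 2.15, where 22.1% of all tested genes had such a p in either direction and 29.1% did not overlap in the higher direction. For endothelium 4 of 6 had an unadjusted p under 0.05 and 5 did not overlap (median 1.83), and for fibroblasts 0 of 6 and 5 of 6 (median 1.47). In TPMPik3r1 against TPM the endothelial median was 1.72, and those of macrophages and fibroblasts were −0.15 and −0.45. Mesothelial medians were 0.70 in TPMPik3ca against TPM, with 0 of 7 at an unadjusted p under 0.05, and 0.50 in TPMPik3r1 against TPM. In TPK against TPM the macrophage markers had a median of 1.75, with 2 of 7 at an unadjusted p under 0.05 and all 7 without overlap. Of all tested genes, 7.17% had such a p there and 24.4% did not overlap in the higher direction. The part of these cells in the members' differences was not tested. Squamous markers, which the TPK and TPM libraries held at 5642 to 21027 CPM, were at 1.36 to 12.3 CPM in the Pik3 models. Of these, 7 of 10 fell in TPMPik3ca and 8 of 10 in TPMPik3r1, where 3.02% and 4.5% of all tested genes fell. In TPK 10 of 10 were higher than in the mean of the Pik3 models, against 10.3% of all.

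Genes with the profile most like each member were found by Pearson's r of log2 CPM over the 8 libraries, which share 4 models, among 10419 or 10420 genes of sufficient level. For Muc20 the closest gene was Pigr (r = 0.9949). Closest to Pigr was Inadl (r = 0.9951), a tight junction scaffold, and Muc4 ranked 3 (r = 0.9923). Muc1 was followed most closely by Cx3cl1 (r = 0.9955), Muc4 by Nupr1 (r = 0.9939), Muc5b by Isg20 (r = 0.9896), Agr2 by 2010111I01Rik (r = 0.9907) and Wfdc2 by Ociad2 (r = 0.9933). For Ltf, the keratin gene Krt19 ranked 3 (r = 0.9872). Between members r ran from 0.8897 for Agr2 and Ltf to 0.9949 for Muc20 and Pigr, and all pairs share the step between the Pik3 models and the others.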

How the data were processed

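RNA was measured in 8 libraries, 2 for each of 4 models. The authors aligned reads to mm10 with STAR and deposited raw counts per gene symbol. The counter, its annotation and its strand setting are not given in the sources used here. Their table normalized with DESeq2 was not used. The column heads call TPM by a slightly longer name. The other engineered genes are not reported here.

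Genes were filtered with filterByExpr, scaled by TMM and fitted in edgeR 4.0.16 (R 4.3.3) with a quasi-likelihood model of the 4 models over all 8 libraries. P-values were adjusted over 15875 genes by the Benjamini-Hochberg method. Standard errors were back-calculated as the absolute log2 fold change over the square root of the F statistic of that test, and are approximate. Alternatives were DESeq2 1.42.0, other scalings, no filter, other sample sets, a replicate block and the study's thresholds (unadjusted p under 0.05, log2 fold change beyond 1). Bounds used 3 counts in each library, count ratios exact 95% intervals, and log2 CPM for likeness a prior count of 2. In a simulation of TPMPik3ca against TPM, 200 of 15875 genes were changed, drawn from those above a minimum mean level. There edgeR recovered 11.1% of 4-fold, 60% of 16-fold and 77.6% of 64-fold changes and called 0.00649% of unchanged genes. DESeq2 recovered 57.1%, 85.7% and 97% and called 0.67%. The rates hold for that number of changed genes, and the number changed in the data is not known.

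Members and lists were chosen with earlier results of these data known. All members were named. Of every other list, at most 4 genes per comparison, those with the largest called change, were named by rule, and other genes named there were chosen after their values were seen. The study describes the replicates as separate mice. The labels do not, and if they were not separate, p-values measure only technical spread. With 2 libraries a model, no permutation test of a single gene could pass.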

Additional observations from a re-analysis of the deposited data

How the results depend on the processing

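The depth set a floor of 0.116 to 0.198 CPM, under which Muc4, Muc20, Muc5b and Agr2 could not be compared between the Pik3 models. The number of members called was 8 of 8 in TPK against the mean of the Pik3 models under every alternative. In TPMPik3ca against TPM it was 6, and 5 to 8 under the alternatives that kept all libraries. In TPMPik3r1 against TPM it was 8, and 2 with only the groups compared in the fit, where fewer samples estimate the spread, and 6 to 8 under the other alternatives that kept all libraries. In TPK against TPM it was 0 and rose to 3 with DESeq2 and to 3 at the thresholds of the study. In TPMPik3r1 against TPMPik3ca it was 0 and rose to 2 under each of the same alternatives. The cause of these rises was not tested. When each library was left out in turn, the counts ranged from 0 to 8 for TPMPik3ca, from 4 to 7 for TPMPik3r1 and stayed at 0 for TPK against TPM and for TPMPik3r1 against TPMPik3ca. A model left with 1 library was assumed to vary like the others. The direction in TPK against TPM turned without TPK replicate 2 for Muc4, whose log2 fold change ranged from −0.033 to 2.24 when each library was left out, and for Pigr (−0.55 to 1.87). For Muc1 in TPMPik3r1 against TPMPik3ca it turned without TPMPik3ca replicate 2 (−0.017) and without TPMPik3r1 replicate 2, with a range of −0.26 to 0.74.

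Replicate numbers did not pair the libraries, since the deviations of same-numbered libraries from their model means correlated at −0.0687 to −0.00819. With a replicate block, the members called were 5 in TPMPik3ca, 6 in TPMPik3r1, 0 in TPK against TPM, 8 in TPK against the Pik3 models and 0 in TPMPik3r1 against TPMPik3ca. The calls lost were Muc5b in TPMPik3ca (edgeR, adjusted p = 0.0627), and Agr2 (0.0921) and Ltf (0.0627) in TPMPik3r1.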
